A study of Mus musculus with 15 samples.

Results

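Microglia, the resident macrophages of the brain, were followed in mouse striatum through 34 genes. The first list holds 20 genes of homeostatic, or resting, microglia, and the second 14 known to be raised when microglia become activated. The first is called homeostatic here, but not all its genes are particular to that state. Trem2 and its adaptor Tyrobp also act in the activated state. The genes were chosen by name. Each of the 34 symbols matched 1 Ensembl identifier among the 54232 identifiers of the count table. All 20 homeostatic genes and 10 of the 14 activated genes passed the filter on low counts and were tested, 30 genes in all. The other 4 activated genes (Cst7, Ch25h, Ccl3 and Ccl4) stayed under it.

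Homeostatic microglia are kept alive by signals through the receptor CSF1R, survey the tissue with receptors for nucleotides (P2RY12) and for the neuronal chemokine fractalkine (CX3CR1), and make the complement protein C1q, which tags synapses and debris for removal. The receptor TREM2, which signals through its adaptor TYROBP, senses lipids and lipoproteins and is needed for the disease-associated state, in which microglia take up lipid and express Axl, Itgax, Clec7a, Cst7, Lpl and Spp1. Spp1, Lpl and Axl are also expressed by other cells of the brain, so their levels in whole tissue do not measure microglia alone.

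Striatal RNA of 15 mice, each 6 months old, was sequenced with a separate library for every animal. There were 7 WT, 4 E1 and 4 KI-96 mice. The series' title is about Huntington's disease knock-in mice and the toxicity of RAN translation, in which ribosomes read an expanded repeat with no start codon to direct them. Age and tissue are the same in all groups, and the labels name no treatment, strain, sex, allele or repeat length for any group. Each animal has its own number in the labels, so replicates are separate mice. In whole tissue, fewer microglia and less RNA per microglial cell cannot be told apart.

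Total counts per library were 17281603 to 26388542 in WT, 18199927 to 19533231 in E1 and 14678565 to 23373551 in KI-96. The 10 markers of striatal spiny neurons summed to between 6361 and 11140 CPM (the count scaled to a common library size, with TMM normalization) in every library. Cortical excitatory neuron markers were highest in 3 libraries, summing to 3704 CPM in the second E1 library, 3478 in the third WT library and 1970 in the third E1 library (replicates 2, 3 and 3), and to between 845 and 1860 in the other 12. Htt had a mean of 179 CPM ± 10.0 (SD, n = 7) over WT libraries, against 142 ± 5.66 (n = 4) for E1 and 187 ± 40.4 (n = 4) for KI-96, and since the labels do not say which part of a gene was altered, this checks no label. KI-96 replicate 3 stood apart from all other libraries in the microglia genes, and results that rest on it are given with and without it.

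Promoters of 25 of the 34 genes were found in RefSeq (build GRCm38.p6, 250 bases before to 50 after the start of the gene) and searched on both strands. GAGGAA and the longer AGGAAGT are cores bound by PU.1, the factor that sets macrophage identity, and their matches can overlap. The shorter was present in 15 of the 25 promoters (60%) against 28.3% of all 27025 promoters of the same length. The longer was present in 8 (32%) against 9.57%. The AP-1 motif TGACTCA was found in 3 (12%, in Itgax, Gpnmb and Cd68) against 5.17%, and the core of the interferon-stimulated response element in 3 (12%, in Aif1, Ctss and Spp1) against 3.49%. The TFEB and MITF motif TCACGTG was found in 2 (8%, in P2ry12 and Siglech) against 3.84%. These matches are descriptions of letters and do not show binding.

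Promoters are shown for C1qb and C1qc, whose levels kept one of the steadiest ratios, and for Trem2, Axl and Cx3cr1. That of Spp1, the most variable of the abundant activated genes, is also shown. Axl did not overlap between E1 and WT (lower, as in 0.799% of all genes), nor Cx3cr1 between KI-96 and E1 (higher, as in 2.29%). Both gaps were narrow, as given below. Capitals mark every match to the 5 motifs on either strand, and overlapping matches run together; a reverse-strand match shows as its complement read backwards. In C1qb (chr4:136886151-136886450, minus strand) GAGGAA began at position -30 from the start site, and the longer core lay at -53 on the reverse strand. In C1qc (chr4:136892865-136893164, minus strand) both cores overlapped on the reverse strand, the shorter at -193. Trem2 (chr17:48346151-48346450, plus strand) held it at -40 and Axl (chr7:25788684-25788983, minus strand) at -130, both on the reverse strand. Spp1 (chr5:104434861-104435160, plus strand) held both PU.1 cores and the interferon element core, and Cx3cr1 (chr9:120068247-120068546, minus strand) held none of the 5.
C1qb: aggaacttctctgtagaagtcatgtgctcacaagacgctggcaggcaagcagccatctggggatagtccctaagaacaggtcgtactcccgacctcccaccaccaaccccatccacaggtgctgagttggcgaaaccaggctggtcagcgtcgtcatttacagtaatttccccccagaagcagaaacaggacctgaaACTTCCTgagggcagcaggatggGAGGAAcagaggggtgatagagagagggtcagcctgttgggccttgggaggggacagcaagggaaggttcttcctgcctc
C1qc: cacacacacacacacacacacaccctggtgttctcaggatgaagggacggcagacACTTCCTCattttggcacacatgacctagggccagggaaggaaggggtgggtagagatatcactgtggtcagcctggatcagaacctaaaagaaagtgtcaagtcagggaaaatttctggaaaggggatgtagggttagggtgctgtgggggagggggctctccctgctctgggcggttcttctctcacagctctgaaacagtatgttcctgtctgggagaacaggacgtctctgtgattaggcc
Trem2: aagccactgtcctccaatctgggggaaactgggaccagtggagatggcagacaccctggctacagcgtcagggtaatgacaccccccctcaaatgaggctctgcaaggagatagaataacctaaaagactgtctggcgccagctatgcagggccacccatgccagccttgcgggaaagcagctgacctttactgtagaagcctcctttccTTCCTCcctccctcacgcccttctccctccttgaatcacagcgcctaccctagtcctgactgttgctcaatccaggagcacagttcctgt
Axl: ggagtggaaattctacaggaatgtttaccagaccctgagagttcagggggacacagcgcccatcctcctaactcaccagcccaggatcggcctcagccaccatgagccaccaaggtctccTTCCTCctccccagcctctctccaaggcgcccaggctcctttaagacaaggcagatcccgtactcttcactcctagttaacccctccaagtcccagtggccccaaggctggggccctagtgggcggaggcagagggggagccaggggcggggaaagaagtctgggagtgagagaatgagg
Cx3cr1: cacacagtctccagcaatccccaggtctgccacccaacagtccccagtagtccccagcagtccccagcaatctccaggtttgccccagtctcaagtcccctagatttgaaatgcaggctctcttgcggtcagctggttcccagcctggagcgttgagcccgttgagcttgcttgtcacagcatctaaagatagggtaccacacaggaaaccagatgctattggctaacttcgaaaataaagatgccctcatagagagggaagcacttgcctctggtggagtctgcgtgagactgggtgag
Spp1: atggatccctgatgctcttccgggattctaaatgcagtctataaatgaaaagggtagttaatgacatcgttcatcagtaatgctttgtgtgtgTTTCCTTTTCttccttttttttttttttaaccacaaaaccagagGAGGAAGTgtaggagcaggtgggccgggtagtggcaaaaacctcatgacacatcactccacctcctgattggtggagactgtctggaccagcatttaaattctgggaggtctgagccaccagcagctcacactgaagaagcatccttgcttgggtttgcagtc

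Levels of the genes were compared with each other in WT as mean CPM per kilobase of the longest annotated transcript. The 3 chains of C1q and the lysosomal protease Ctss (cathepsin S) led: C1qa stood at 52.7, Ctss at 52.7, C1qb at 43.4 and C1qc at 36.8 CPM per kilobase. Csf1r followed at 23.7 and Tyrobp at 19.8. P2ry12 (14.8) and Cx3cr1 (13.3) were close to each other per length, and Trem2 was lower at 3.44 on this measure. The longest annotated transcript (4784 bases for Trem2) need not be the one expressed, which was not determined, so this order depends on the annotation. Of the activated genes, Lpl (lipoprotein lipase) was at 16.2 and the receptor kinase Axl at 12.0, within the range of the homeostatic genes. Cd68 (9.51), Spp1 (8.96), Lyz2 (4.72) and Cd14 (1.79) also lay above the lowest homeostatic gene, Itgam (1.46). The other 8 activated genes lay below it, among them Gpnmb at 0.447, Cst7 at 0.232, Clec7a at 0.199 and Itgax at 0.181 CPM per kilobase.

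**Figure D1:**
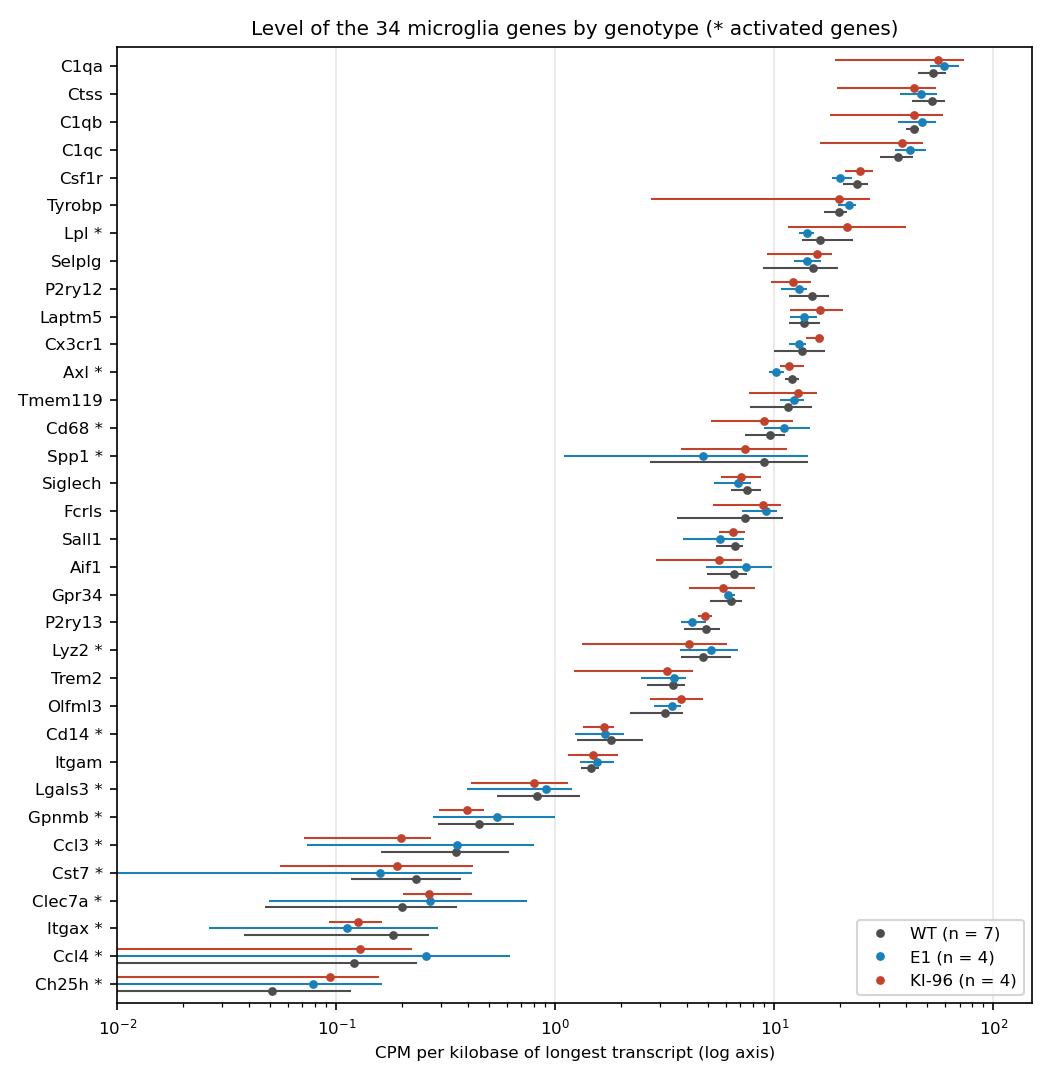
Mean level of each of the 34 genes in CPM per kilobase of longest transcript (points, log axis) with the lowest and highest library (lines) in WT, E1 and KI-96; a line reaching the left edge includes a library at or near 0. C1qa, Ctss and C1qb are highest in WT, 8 of the 14 activated genes lie below 1 CPM per kilobase in WT, and the KI-96 lines of Tyrobp, C1qa and Trem2 reach far down.

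The striatum of E1 and WT mice did not differ in any microglia gene past the threshold. Of the 30 tested genes, 0 passed in E1 against WT by edgeR's quasi-likelihood test with Benjamini-Hochberg adjustment over all 18278 genes, where 1 gene of the whole table did (0.00547%). DESeq2 and limma-voom also called 0 of the 30, against 0.276% and 0.0109% of all genes. At an unadjusted p under 0.05, Csf1r and Axl were lower and 0 genes were higher, beside 5.06% of all genes lower and 3.69% higher (8.75% in either direction). Libraries of E1 and WT did not overlap in 1 gene, Axl, which was lower, beside 0.799% of all genes lower and 0.892% higher. Among homeostatic genes 11 log2 fold changes were above 0 and 9 below (median 0.02, all genes -0.00), and among the tested activated genes 5 were above and 5 below (median 0.02). The 95% interval of the fold change stayed within 2-fold for 20 of 20 homeostatic and 7 of 10 activated genes.

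KI-96 and WT mice likewise gave 0 of 30 genes past the threshold, and 0 of all 18278 genes passed (0%). DESeq2 and limma-voom called 0 of the 30, against 0.273% and 0% of all genes. At an unadjusted p under 0.05, Cx3cr1 was higher and P2ry12 lower, beside 5.8% of all genes higher and 4.68% lower (10.5% in either direction). Libraries did not overlap in 0 of the 30 genes, beside 0.635% of all genes higher and 0.651% lower. Homeostatic genes split into 10 above 0 and 10 below (median 0.01, all genes -0.01), and activated genes into 2 above and 8 below (median -0.10). Intervals stayed within 2-fold for 20 of 20 and 7 of 10 genes.

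That balance depended on single libraries, in opposite directions. Without KI-96 replicate 3, 15 of 20 homeostatic genes were above 0 against WT with a median of 0.21 (all genes -0.01). Of these, 6 had an unadjusted p under 0.05, all higher (C1qa, C1qb, C1qc, Laptm5, Olfml3 and Tyrobp), beside 10.9% of all genes in that fit. Over all genes 0 of the 6 passed, where 0.0108% of the table did. C1qa had a log2 difference of 0.38 from WT (SE 0.12, adjusted p = 0.279 in edgeR) without that library and 0.09 (SE 0.25, adjusted p = 0.922) with it. Over 27 alternative analyses its adjusted p ran from 0.279 to 1.00 and its log2 fold change from -0.16 to 0.38. The activated genes then split 5 and 5. Without KI-96 replicate 1, the library with the highest homeostatic mean, 5 homeostatic genes were above 0 and 15 below (median -0.07).

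KI-96 against E1 gave 0 of 30 genes past the threshold, as did the whole table (0%), and DESeq2 and limma-voom called 0 of the 30 against 1.14% and 0% of all genes. Cx3cr1 and Csf1r were higher in KI-96 and 0 genes lower at an unadjusted p under 0.05, beside 7.84% of all genes higher and 6.42% lower (14.3% in either direction). Libraries did not overlap in 1 gene, Cx3cr1, which was higher, beside 2.29% of all genes higher and 2.5% lower. Of the homeostatic genes 9 were above 0 and 11 below (median -0.06), and without KI-96 replicate 3 the split was 18 and 2 (median 0.18), with Csf1r, Laptm5 and Axl at an unadjusted p under 0.05 beside 10% of all genes. Activated genes split 4 and 6. Intervals stayed within 2-fold for 19 of 20 homeostatic and 5 of 10 activated genes. This comparison shares its libraries with the other 2, so the 3 sets of values are not independent.

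**Figure D2:**
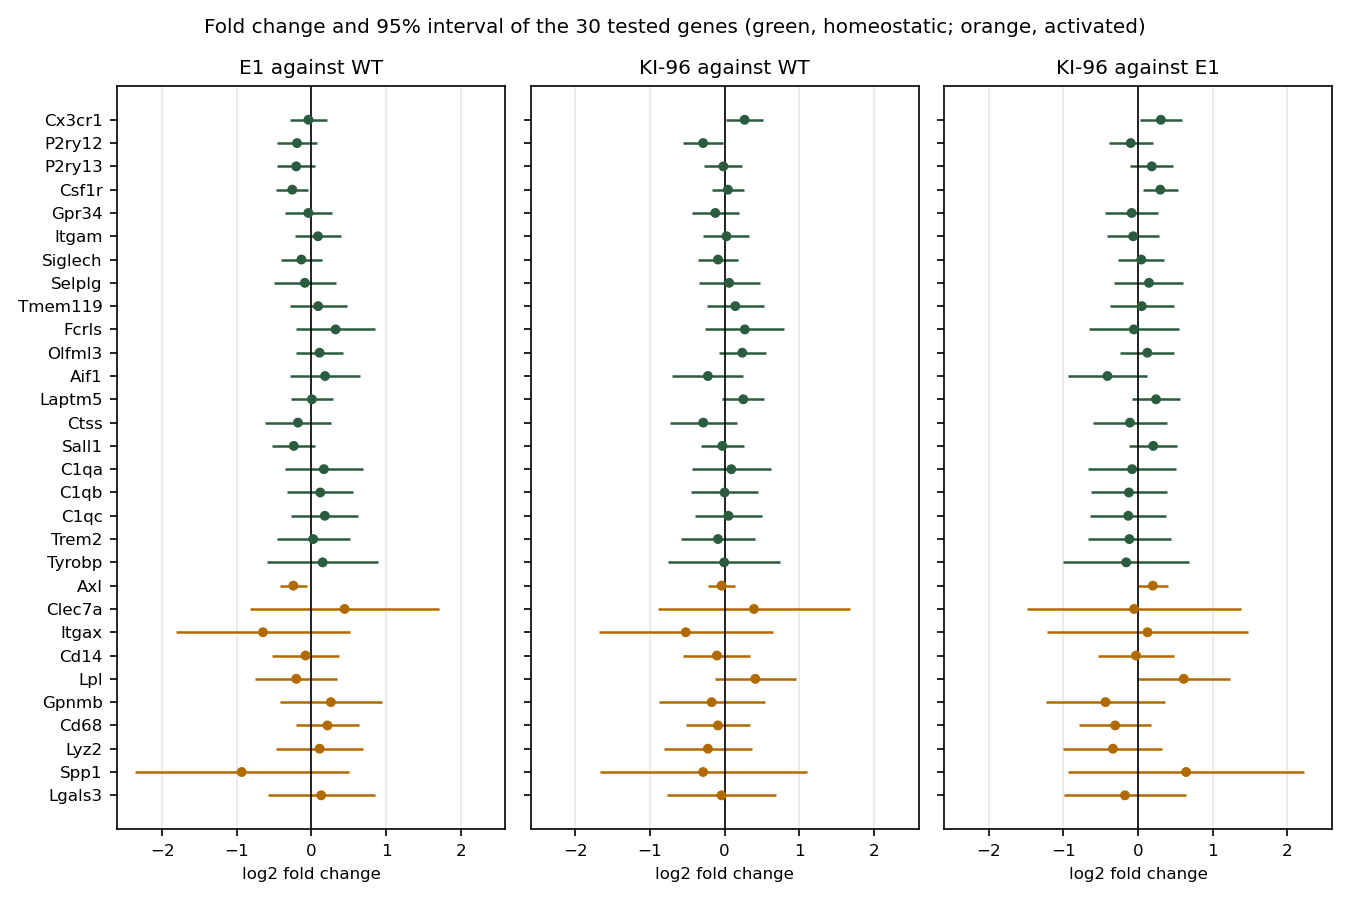
Log2 fold change (points) and 95% interval (lines) of the 30 tested genes in the 3 comparisons, with 0 as the vertical line. Intervals are narrow for Cx3cr1, Csf1r and Axl and wide for Spp1, Itgax and Clec7a, and none of the 90 values passed the threshold over all genes.

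Among the surface receptors, Cx3cr1, the fractalkine receptor, was at 74.7, 74.5, 75.8 and 62.6 CPM in KI-96 replicates 1 to 4. In E1 it was at 56.3, 52.4, 61.4 and 62.5, and in WT it had a lowest value of 44.8, a median of 58.3 and a highest of 76.3. The KI-96 libraries all lay above the E1 libraries, the closest pair being 62.6 and 62.5 CPM, and both groups fell inside the WT range. The log2 fold change was 0.31 against E1 (SE 0.13, unadjusted p = 0.0327, adjusted p = 0.307 in edgeR) and 0.27 against WT (SE 0.12, adjusted p = 0.432). An exon of Cx3cr1 overlaps Gm33858 on the opposite strand, and reads of overlapping genes cannot be told apart where the counting does not use strand, on which the sources used here are silent.

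Csf1r, the receptor for the survival factors CSF1 and IL-34, was at 93.0, 89.0, 86.1 and 106 CPM in E1 replicates 1 to 4 and at 133, 121, 99.1 and 108 in KI-96. WT ran from 97.0 through a median of 113 to 126. E1 replicates 1 to 3 lay below every WT library, and E1 replicate 4 lay among them. The log2 fold change was -0.26 in E1 against WT (SE 0.10, unadjusted p = 0.0211, adjusted p = 0.515 in edgeR) and 0.30 in KI-96 against E1 (SE 0.11, adjusted p = 0.273). Csf1r shares exon sequence with Hmgxb3 on the opposite strand, with the same limit as for Cx3cr1.

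P2ry12, the receptor by which microglial processes follow nucleotides released from injured cells, had a fold change of the opposite sign to Cx3cr1 in KI-96. It was at 34.4, 28.0, 22.6 and 28.4 CPM in KI-96 and at 30.5, 25.2, 32.5 and 33.1 in E1, against 27.4, 35.2 and 41.7 as lowest, median and highest in WT. The groups overlapped, with only KI-96 replicate 3 below all others of the 3 groups. The log2 fold change in KI-96 against WT was -0.29 (SE 0.13, unadjusted p = 0.0336, adjusted p = 0.432 in edgeR) and -0.19 without KI-96 replicate 3. P2ry12 overlaps Med12l on the opposite strand.

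P2ry13, the neighbouring nucleotide receptor on chromosome 3 (59207892 to 59262871 for the pair, GRCm38), lay between 9.45 and 14.3 CPM in all libraries. The log2 ratio of P2ry12 to P2ry13 had an SD of 0.24 over the 15 libraries, ranking 35 of 190 pairs of homeostatic genes by steadiness. Gpr34, a receptor for lysophosphatidylserine on the X chromosome, was at 13.2 ± 1.49 CPM in WT (n = 7), 12.9 in E1 and 12.2 in KI-96. Itgam, the integrin chain CD11b, was at 6.83 ± 0.455, 7.26 and 6.96 CPM, and shares exon sequence with Gm49368 on the same strand. Siglech, a sialic acid receptor, was at 17.2 ± 1.78, 15.7 and 16.2 CPM. For these 4 receptors the 3 genotypes overlapped in every comparison.

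**Figure D3:**
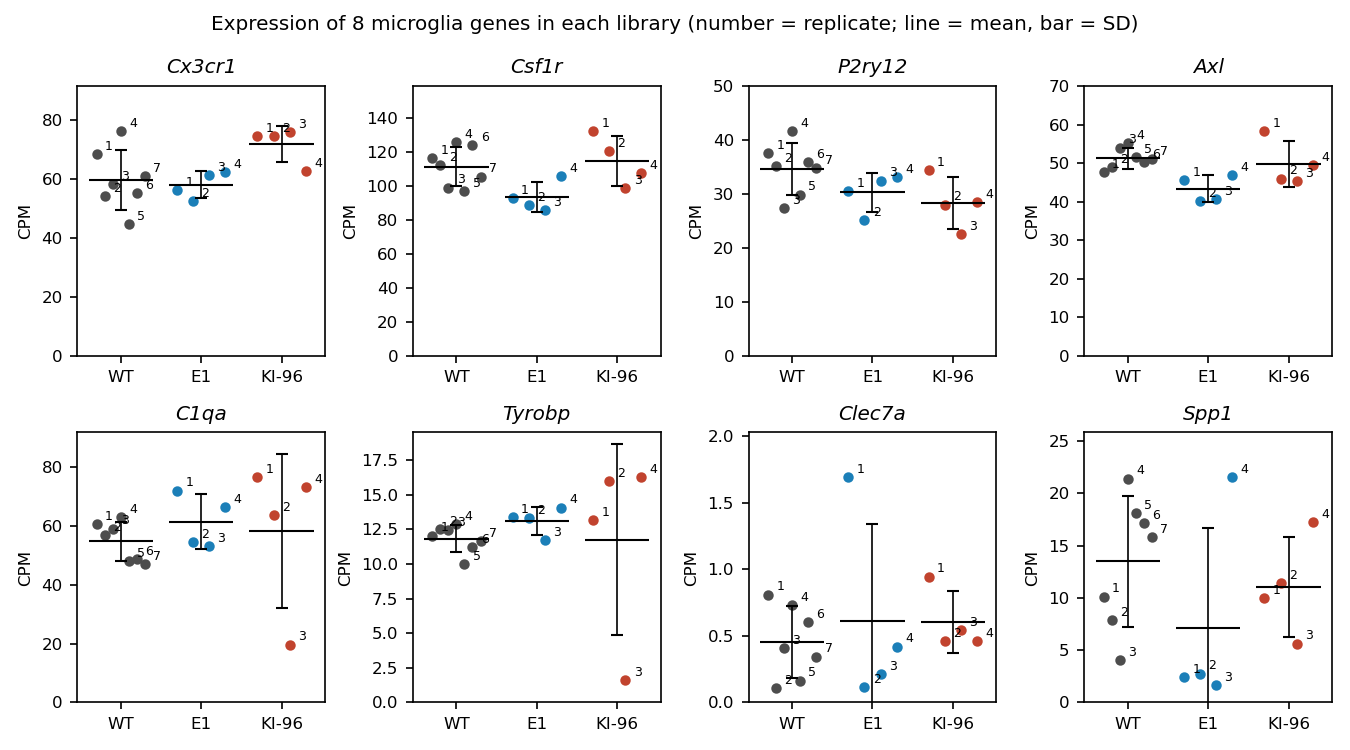
CPM of 8 genes in each library (points, numbered by replicate) with the group mean (line) and SD (bar); lower bars of Clec7a and Spp1 in E1 are cut at 0. KI-96 replicate 3 is far below its group in C1qa and Tyrobp, E1 replicate 1 is the highest of all in Clec7a, and 3 of 4 E1 libraries are low in Spp1.

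The libraries of all genotypes overlapped in the membrane and secreted identity genes. Tmem119, a membrane protein that separates microglia from blood-derived macrophages, and Selplg, a ligand of P-selectin, lie 18020 bases apart on chromosome 5 (113793729 to 113832644). Tmem119 was at 17.4 CPM in WT replicate 7 and 17.1 in KI-96 replicate 3, and between 21.3 and 34.9 in the other 13 libraries. Selplg was lowest in the same 2 libraries, at 20.4 and 21.5 CPM. Its ratio to Tmem119 stayed between 1.07 and 1.44 in all libraries, with an SD of the log2 ratio of 0.12, the third steadiest of the 190 pairs. Fcrls, an Fc receptor-like molecule of resting microglia, was the most variable homeostatic gene in WT: its lowest, median and highest values were 8.12, 15.5 and 24.8 CPM. Olfml3, a secreted matrix protein, was at 17.3 ± 2.90 CPM in WT, 18.7 in E1 and 20.4 in KI-96.

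The genes for C1q, which starts the classical complement cascade, kept steady ratios to each other from animal to animal. C1qa, C1qc and C1qb lie side by side on chromosome 4 (136880129 to 136898803), and their 3 pairs took ranks 1, 2 and 4 of 190 in steadiness, with SDs of the log2 ratio of 0.10 for C1qa and C1qc, 0.12 for C1qb and C1qc and 0.14 for C1qa and C1qb. The median of all pairs was 0.34, or 0.26 without KI-96 replicate 3. C1qa was at 76.5, 63.8, 19.7 and 73.2 CPM in KI-96 and at 72.1, 54.4, 53.1 and 66.5 in E1. WT ran from 47.0 through 57.0 to 62.9. KI-96 replicate 3 was the lowest of all 15 libraries. The other 3 KI-96 libraries were above the highest WT library, the closest at 63.8 against 62.9 CPM, and so were E1 replicates 1 and 4. The sum of the 3 chains was 58.7 CPM in KI-96 replicate 3 and 128 to 195 elsewhere. Relative to Csf1r in the same library the sum was 0.592 there and 1.08 to 2.04 elsewhere. The longest transcripts of the chains have 1040 to 1203 bases, and that of Csf1r has 4701. Short transcripts were low throughout KI-96 replicate 3, as given below, and the part of length in this ratio was not tested.

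Trem2 and its adaptor Tyrobp were both low in the same library. Tyrobp was at 13.2, 16.0, 1.64 and 16.2 CPM in KI-96, at 13.4, 13.3, 11.7 and 14.1 in E1, and had a lowest, median and highest value of 10.0, 12.0 and 12.9 in WT. Its value in KI-96 replicate 3, from 30 reads, was 12.9% of the median of the other 14 libraries. Trem2 was at 17.7, 18.0, 5.84 and 20.3 CPM in KI-96 and at 18.9, 18.6, 11.8 and 17.6 in E1. In WT replicate 7 Trem2 was at 12.5 CPM, and it was between 16.3 and 18.7 in the other 6. Without KI-96 replicate 3 the SD of the log2 ratio of Trem2 to Tyrobp dropped from 0.40 to 0.19.

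The remaining homeostatic genes encode proteins of the cytoplasm, lysosome and nucleus. Aif1, the calcium-binding protein IBA1 used to stain microglia, was at 5.71 ± 0.727 CPM in WT, with its highest value of 8.51 in E1 replicate 1 and its lowest of 2.51 in KI-96 replicate 3. Ctss ran from 50.8 to 81.2 CPM in 14 libraries and was at 26.1 in KI-96 replicate 3. Laptm5, a lysosomal membrane protein, was at 53.5, 43.3, 30.7 and 40.8 CPM in KI-96 and at 35.4 ± 4.09 in WT. Sall1, the transcription factor that keeps microglial identity, was at 34.9 ± 3.49 CPM in WT, 29.6 in E1 and 34.1 in KI-96, and its lowest value was 20.1 CPM in E1 replicate 2, a library rich in cortical markers.

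KI-96 replicate 3 held the lowest value of all 15 libraries in 13 of the 30 tested genes and the highest in 1, Lpl. Its mean log2 CPM over the homeostatic genes was 3.94, against 4.52 to 4.95 in the others. The deficit was not even: relative to the median of the other 14 libraries, Tyrobp stood at a log2 value of -2.88, Lyz2 at -1.74, C1qa at -1.60 and Trem2 at -1.57, while P2ry13 was at 0.02 and Cx3cr1 at 0.31. Short transcripts were low throughout this library. The 9 microglia genes with a longest transcript under 1500 bases had a median of -1.34, and all 1541 coding genes of that length had -0.72. The 9 microglia genes over 4000 bases had a median of -0.22, and the 5777 coding genes of that length had 0.19. Trem2 was among these 9 by its longest annotated transcript, and which transcript was expressed was not determined. The part of transcript length in the low values of single genes was not tested. With a covariate for that length imbalance, chosen after the data were seen, 13 of 20 homeostatic genes were above 0 in KI-96 against WT (median 0.09), and 0 of 30 passed.

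**Figure D4:**
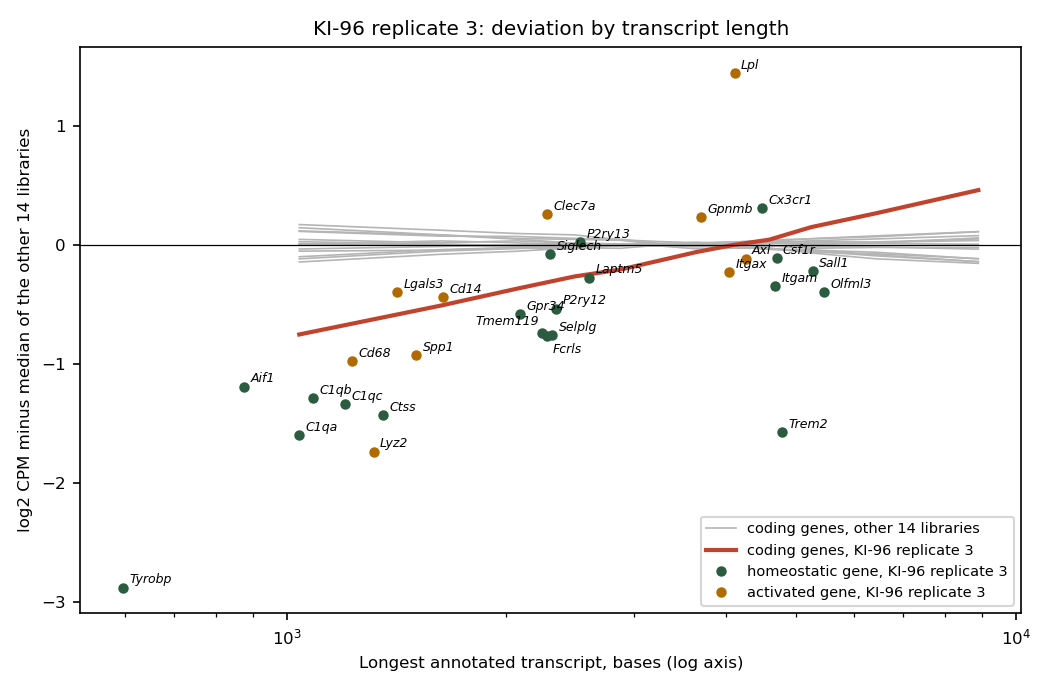
Log2 CPM in KI-96 replicate 3 minus the median of the other 14 libraries for the 30 tested genes (points) by longest transcript length (log axis); lines join the medians of 12 length classes of all coding genes in KI-96 replicate 3 (red) and each other library (grey). Most short microglia genes lie below the red line, Trem2 is low with a long annotated transcript, and Lpl is high.

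Of the activated genes, Axl, a receptor kinase that helps clear apoptotic cells, was the gene in which E1 and WT did not overlap. It was at 45.7, 40.1, 40.6 and 47.0 CPM in E1, and WT ran from 47.6 through 51.1 to 55.1. The gap between the groups was the distance from 47.0 to 47.6 CPM. The log2 fold change was -0.24 (SE 0.09, unadjusted p = 0.0111, adjusted p = 0.484 in edgeR), with an interval of -0.42 to -0.06. Without WT replicate 3 and E1 replicates 2 and 3, the cortex-rich libraries, it was -0.14, as it was with a covariate for Y-linked genes. Without those 3 libraries 0 of the 30 genes had an unadjusted p under 0.05, beside 3.99% of all genes. KI-96 was at 58.3, 46.0, 45.4 and 49.4 CPM and overlapped both groups.

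Clec7a, the pattern receptor dectin-1 and a marker of disease-associated microglia, was at 1.69 CPM in E1 replicate 1 and between 0.108 and 0.946 in the other 14 libraries. The annotation lists it as a polymorphic pseudogene. Itgax, the integrin chain CD11c, was likewise highest in E1 replicate 1 at 1.18 CPM, and 2 other E1 libraries were the lowest of all at 0.112 and 0.106. Without E1 replicate 1 the log2 fold change of E1 against WT was -1.72 for Itgax, from -0.65 with it, and -0.83 for Clec7a, from 0.45. Itgax, Axl and Csf1r then had an unadjusted p under 0.05, beside 6.06% of all genes. The activated genes then split into 2 above 0 and 8 below (median -0.20). Cd14, a coreceptor for bacterial lipopolysaccharide, was at 2.95 ± 0.701 CPM in WT, 2.78 in E1 and 2.74 in KI-96.

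Among genes of the lysosome and lipid handling, Lpl was at 86.5, 55.4, 164 and 47.7 CPM in KI-96 replicates 1 to 4, against 53.2 to 93.8 in WT and E1, so KI-96 replicate 3 was alone at the top. Its log2 fold change in KI-96 against WT was 0.41 (SE 0.25) with that library and -0.08 without it. Cd68, a glycoprotein of late endosomes, and Lyz2, lysozyme, were both highest in E1 replicate 1 (17.8 and 9.02 CPM) and lowest in KI-96 replicate 3 (6.33 and 1.75 CPM). Gpnmb, a lysosomal glycoprotein, was at 3.67 CPM in E1 replicate 3 and between 1.02 and 2.39 in the rest. Cst7, a cathepsin inhibitor, and Ch25h, the cholesterol 25-hydroxylase, never exceeded 0.416 and 0.225 CPM.

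Spp1, which encodes the secreted protein osteopontin, had the widest range of the abundant activated genes. It was at 2.41, 2.75, 1.65 and 21.5 CPM in E1 replicates 1 to 4, and WT ran from 4.06 through 15.8 to 21.4. KI-96 was at 9.97, 11.4, 5.62 and 17.2 CPM. Spp1 shares exon sequence with Gm42793 on the same strand, where reads cannot be told apart by strand. E1 replicates 1 to 3 lay below every WT library, and E1 replicate 4 lay just above the highest. E1 replicates 2 and 3 and WT replicate 3, the lowest WT library in Spp1, were the cortex-rich libraries. Those E1 libraries remained in the fit without E1 replicate 4. The log2 fold change of E1 against WT was -0.93 (SE 0.67, adjusted p = 0.687 in edgeR). Without E1 replicate 4 it was -2.58 (SE 0.50, adjusted p = 0.0231), and it then passed with 1.38% of all 18676 genes tested. Over 27 alternatives the adjusted p of Spp1 ran from 0.0231 to 1.00. In KI-96 against E1 the log2 fold change was 0.65, and 2.29 (adjusted p = 0.0537 in edgeR, beside 1.02% of all genes past the threshold) without E1 replicate 4. Myelin and oligodendrocyte markers were highest in E1 replicate 4 (summed 16990 CPM). They were lowest in E1 replicates 3 and 2 (7086 and 8209), KI-96 replicate 3 (9127), WT replicate 3 (11056) and E1 replicate 1 (11386). The next lowest sum was 12343 CPM, in KI-96 replicate 2. Those lowest libraries were also the lowest in Spp1, in another order. E1 replicate 1 was below WT replicate 3 and KI-96 replicate 3 in Spp1 but above them in myelin markers. The part of these markers in the values of Spp1 was not tested.

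The other secreted products were rare. Lgals3, galectin-3, was at 1.17 ± 0.403 CPM in WT, 1.29 in E1 and 1.13 in KI-96. The chemokines Ccl3 and Ccl4, which lie together on chromosome 11, were highest in E1 replicate 1 at 0.615 and 0.410 CPM, and at most 0.469 and 0.210 CPM in the other 14 libraries.

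E1 replicate 1 held the highest value of the 15 libraries in 6 of the 30 tested genes (Aif1, C1qc, Clec7a, Itgax, Cd68 and Lyz2) and in the untested Ccl3 and Ccl4. It held the lowest in Gpnmb (1.02 CPM) and was low in Spp1 (2.41 CPM). Other libraries were highest as often, WT replicate 4 in 6 genes and KI-96 replicate 1 in 9. E1 replicate 1 was highest in all 15 genes of an interferon response list, whose sum was 262 CPM there, 48.9 to 55.7 in the other E1 libraries, 43.6 to 53.3 in WT and 41.4 to 100.1 in KI-96. E1 replicate 1 was also highest in 3 of 36 ligands and partners of the members and in 5 of 20 inflammatory genes. The former included complement C3 (8.76 CPM against at most 5.02) and C4b (144 against at most 91.5). The latter included the chemokine Cxcl10 (5.84 against at most 0.708). The homeostatic mean log2 CPM of that library was 4.75, inside the WT range of 4.52 to 4.84. The part of the interferon response in the activated genes was not tested.

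**Figure D5:**
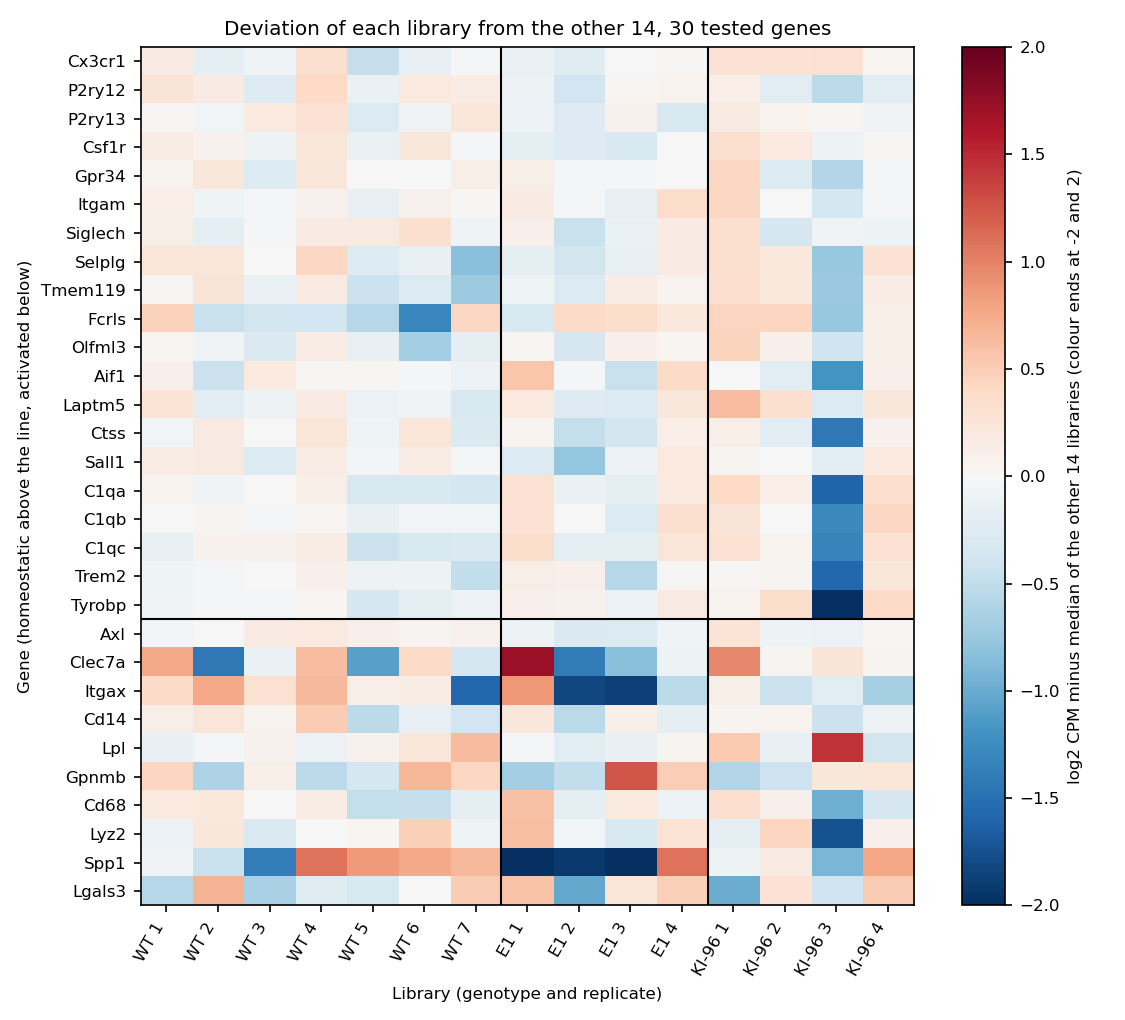
Log2 CPM of each of the 30 tested genes in each library minus the median of the other 14 libraries (colour, cut at -2 and 2), with homeostatic genes above the horizontal line. In KI-96 replicate 3, Aif1, Ctss, the C1q genes, Trem2, Tyrobp and Lyz2 are deep blue, Laptm5 and Sall1 are pale and Lpl is red. E1 replicate 1 is red in Clec7a, Itgax, Cd68 and Lyz2.

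Within a genotype, activated genes spread more than homeostatic ones. The median SD of log2 CPM over WT animals was 0.18 for homeostatic genes, 0.38 for the tested activated genes and 0.21 for all tested genes. In E1 these were 0.22, 0.52 and 0.23, and in KI-96 0.44, 0.48 and 0.31. Without KI-96 replicate 3 the KI-96 values were 0.16, 0.33 and 0.22. Most activated genes also had fewer reads, and the part of counting error in this spread was not tested. With library totals in place of TMM factors, KI-96 replicate 1 held the highest value in 4 genes. E1 replicate 2 held the lowest in 5.

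Other genes that act with these were examined in 4 lists of 117 genes, and of the 100 tested, 0 passed over all genes in any comparison by edgeR, DESeq2 or limma-voom. At an unadjusted p under 0.05, 8 were higher and 2 lower in E1 against WT, 4 and 1 in KI-96 against WT, and 2 and 3 in KI-96 against E1. The shares over all genes in either direction were 8.75%, 10.5% and 14.3%. Of 36 further microglia identity genes, 17 were above 0 and 19 below in E1 against WT (median -0.02), 22 and 14 in KI-96 against WT (0.06) and 23 and 13 in KI-96 against E1 (0.07). The smallest unadjusted p-values belonged to Fcgr3, an activating receptor for antibodies, which was at 12.1 ± 1.55 CPM in E1 against 8.46 ± 1.36 in WT (log2 fold change 0.51, SE 0.16, adjusted p = 0.448 in edgeR), and to Nckap1l (-0.34). In KI-96 against WT they belonged to Itgb5 (0.24), the adenosine receptor Adora3 (-0.78) and the transcription factor Runx1 (0.54), which was at 1.94 ± 0.453 CPM against 1.32 ± 0.220. Runx1 (0.67), Fcgr3 (-0.39) and Itgb5 (0.22) had the smallest in KI-96 against E1.

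Ligands and partners of the members had 30 of 36 genes tested, with 14 above 0 and 16 below in E1 against WT, 20 and 10 in KI-96 against WT and 19 and 11 in KI-96 against E1. Il34, a ligand of CSF1R made by neurons, was at 48.0 ± 6.95 CPM in E1, 38.3 ± 6.40 in WT and 36.8 ± 4.36 in KI-96. Its log2 fold change was 0.33 in E1 against WT (SE 0.12, adjusted p = 0.491 in edgeR), opposite in sign to that of Csf1r, and -0.39 in KI-96 against E1 (SE 0.14, adjusted p = 0.262). Cx3cl1, the neuronal ligand of CX3CR1, was at 895 ± 164 CPM in E1 and 699 ± 122 in WT (0.36). E1 replicates 2 and 3 and WT replicate 3 were the cortex-rich libraries, and their part in the Il34 and Cx3cl1 values was not tested. C3 stood at 0.99 in E1 against WT, with E1 libraries from 1.97 to 8.76 CPM. Smad3 (0.25), the complement receptor C3ar1 (0.36) and the adaptor Pik3ap1 (0.35) had the smallest p-values in KI-96 against WT. In KI-96 against E1, beside Il34, they were Pik3ap1 (0.60) and the TREM2 signalling phospholipase Plcg2 (0.49).

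Of 25 further genes of disease-associated microglia, 22 were tested, with 15 above 0 and 7 below in E1 against WT, 10 and 12 in KI-96 against WT and 7 and 15 in KI-96 against E1. The cathepsin Ctsz was at 57.6 ± 6.53 CPM in E1 and 58.5 ± 13.7 in KI-96, against 47.6 ± 3.52 in WT (log2 fold changes 0.27 and 0.30, adjusted p = 0.534 and 0.405 in edgeR). B2m (0.45) and Lgmn (-0.13) followed in E1 against WT, and Cd9 (-0.40) and Fabp5 (-0.22) in KI-96 against WT. B2m (-0.51), Cd9 (-0.31) and Lgmn (0.15) did so in KI-96 against E1. Of 20 inflammatory genes 12 were tested, with 8 above 0 and 4 below, 6 and 6, and 6 and 6 in the 3 comparisons. Ptgs2, the inducible cyclooxygenase that neurons also express, was at 6.19 ± 5.79 CPM in E1 and 1.46 ± 0.846 in WT (2.09, SE 0.53, adjusted p = 0.421 in edgeR), and -1.76 in KI-96 against E1. Its E1 libraries ran from 1.02 to 13.2 CPM, and the part of the cortex-rich libraries was not tested. Tlr3 (-0.25) and Il1a (-0.66) followed in E1 against WT. Tlr2 stood at 0.63, Cxcl16 at 0.47 and Nfkbia at -0.33 in KI-96 against WT, and Tlr2 at 0.58 and Nfkbia at -0.35 in KI-96 against E1.

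Markers of other myeloid and blood cells were near 0 for the most part. Of 12 border macrophage markers, 8 stayed under 1 CPM in every library, and the list summed to 24.9 to 36.0 CPM in WT, 26.1 to 33.1 in E1 and 31.1 to 40.6 in KI-96. Most of that sum came from Stab1 (10.9 to 24.4 CPM) and Cd163 (7.98 to 15.4), and Lyve1 never exceeded 0.754. The 10 monocyte and neutrophil markers summed to 1.10 to 2.57 CPM in WT, 1.12 to 1.97 in E1 and 0.921 to 1.09 in KI-96, and Ccr2 was at most 0.328. Lymphocyte markers other than Cd4 stayed under 1 CPM, with Cd3e at most 0.115. Cd4 itself ran from 52.4 to 108 CPM. Haemoglobin genes and Alas2 summed to 79.2 to 216 CPM in WT, 61.1 to 513 in E1 and 87.2 to 142 in KI-96.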

How the data were processed

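Striatal RNA of 15 mice was sequenced, 1 library per mouse. The deposited table holds read counts per gene for 54232 Ensembl identifiers, made by the authors. The submitters' processing notes name STAR, HTSeq, DESeq2 version 1.24.0 and GRCm38, with no roles or settings. Whether counting used strand is not stated in these sources. Symbols came from the annotation by identifier without version (54165 matched).

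Counts were tested with edgeR 4.0.16 in R 4.3.3 (TMM scaling, filterByExpr with a minimum count of 10, robust quasi-likelihood F test, two-sided). All 15 libraries entered 1 fit with genotype as the only factor. P-values were adjusted by Benjamini-Hochberg over 18278 genes, with a threshold of 0.05. Fold changes are log2, first group minus second, and a prior count of 2 entered log2 CPM. Standard errors were taken from the fold change and its F statistic. DESeq2 1.42.0, limma-voom 3.58.1, other scalings, no filter, left-out libraries, a replicate block and covariates for cortical, Y-linked and length differences were alternatives. The procedure was tested on simulated data. Total counts were 14678565 to 26388542, and 33 pairs of libraries within groups all differed by more than sampling noise (smallest chi-square per degree of freedom 7.78).

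The members and lists were chosen with earlier results of these data known. All 34 members are accounted for. From each list of partner genes, those past the threshold were to be named, or otherwise the 3 with the smallest unadjusted p, and of other cell type lists only sums, counts and defining markers near 0. Names outside that rule (C4b, Cxcl10, Stab1, Cd163, Cd4) were chosen after their values were seen. 1 gene that this rule names is not reported here. A planned comparison of protein sequences was not made.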

Additional observations from a re-analysis of the deposited data

Results flagged for a closer look

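A single library lay far from the rest of its group in 9 of 96 groups of values. Dixon's test at 95% is met by chance in about 1 in 20 separate groups. These groups share the same 15 libraries and some of their genes vary together, so they are not 96 separate trials. KI-96 replicate 3 gave 5 of the 9. The ratio compares the gap to the nearest library with the range of the group on the log2 scale, and its limit is 0.829 for 4 libraries and 0.568 for 7. In KI-96, replicate 3 was low in Tyrobp (ratio 0.907, 1.64 CPM against 13.2 to 16.2), Trem2 (0.889, 5.84 against 17.7 to 20.3), Selplg (0.886, 21.5 against 39.4 to 42.6), C1qa (0.865, 19.7 against 63.8 to 76.5) and C1qc (0.851, 19.4 against 49.0 to 57.7). In Cx3cr1 it was KI-96 replicate 4 that lay apart (0.908), at 62.6 CPM against 74.5 to 75.8, while replicate 3 had the highest value of that group.

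Trem2 met the limit in all 3 genotypes. Besides KI-96, E1 replicate 3 was at 11.8 CPM against 17.6 to 18.9 (0.857), and WT replicate 7 at 12.5 against 16.3 to 18.7 (0.661). WT replicate 7 was also low in Itgax, the CD11c integrin chain, at 0.153 CPM against 0.656 to 1.08 in the other 6 WT libraries (0.712).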

How the results depend on the processing

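Of 2428 values of single members under 27 alternatives, 2406 kept their side of the threshold or stayed within the spread, 21 moved beyond it, 1 passed the threshold and 0 called values reversed. Among uncalled values, 175 changed sign, the largest of them with a main log2 size of 0.65. The 1 member that passed was Spp1 in E1 against WT without E1 replicate 4, so leaving out 1 library gave 0 to 1 members called there, and 0 in the other comparisons. The 1 gene of the whole table called in E1 against WT became 0 with library totals, with no filter, with only the 2 groups compared, with replicates 1 to 4 and no block, with a Y-linked or cortical covariate and without the 3 cortex-rich libraries. It became 56 with DESeq2, 2 with limma-voom and 0 to 257 with 1 library left out (257 without E1 replicate 4, 12 without WT replicate 1). For KI-96 against WT the count of 0 became 1 with no filter, 67 with DESeq2 and 0 to 11 with 1 library left out (11 without WT replicate 1). For KI-96 against E1 it became 3, 200 and 0 to 190 (190 without E1 replicate 4, 128 without KI-96 replicate 4). With a covariate for Y-linked genes, the genes at an unadjusted p under 0.05 in edgeR went from 1599 to 454 in E1 against WT. They went from 1916 to 218 in KI-96 against WT and from 2607 to 2512 in KI-96 against E1. The log2 fold change of Fcrls went from 0.33 to -0.25 in E1 against WT and from 0.27 to -0.30 in KI-96 against WT. The labels give no sex, and the part of sex in these values was not tested. The cause of these moves was not tested.

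With the short-transcript covariate, chosen after seeing the data, the homeostatic median of E1 against WT was -0.12. Replicate numbers are shared by the groups. The 12 same-numbered pairs had r of -0.10 to 0.19, with 5 over 0.1, and other-numbered pairs had r of -0.36 to 0.54. Of 12 libraries, 6 matched their own number best. These values do not settle whether the numbers pair animals, and the main fit did not pair them. The replicate block gave 0 genes in E1 against WT. With library totals, KI-96 replicate 1 was highest in 4 genes in place of 9. Clec7a, Itgax and the 4 genes under the filter had too few reads to show differences of less than several-fold.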
